A study of Mus musculus with 16 samples.

Results

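The least methylated large stretches of the mouse autosomes were taken as 1197 of 23949 non-overlapping bins of 100 kb. Bins lay on chromosomes 1 to 19, held at least 100 listed CpGs, and were ranked by methylation level after CpGs within 2 kb of any annotated transcription start site were left out. The level is the share of methylated calls among all calls, a call being 1 read at 1 CpG, pooled over 16 libraries, and the lowest 5% of bins were chosen. The level itself chose these bins and is therefore given as a description, without a test. The questions were which genes lie in them, how they differ between B and T cells, and how they differ between the 2 kinds of bisulphite library.

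The libraries are whole-genome methylation libraries from spleens of C57BL/6J mice aged 6 to 8 weeks. Naive CD4+CD62L+ T cells and CD43- resting B cells were sorted magnetically from pooled male or pooled female mice. Each cell type was profiled by bisulphite sequencing (BS), which reads 5-methylcytosine and 5-hydroxymethylcytosine together, and by oxidative bisulphite sequencing (oxBS), in which KRuO4 oxidation first converts 5-hydroxymethylcytosine so that only 5-methylcytosine is read. There were 2 libraries for each combination of cell type, sex and assay, all from unmanipulated animals without a transgene or treatment in the labels. The labels name no mouse, and part of each ligated DNA sample was oxidised, so a BS and an oxBS library may share their DNA. Neighbouring numbers (1 and 2, 3 and 4, and so on) each hold a BS and an oxBS library of 1 cell type and sex, but no label says that they are pairs. The p-values below measure the spread between libraries, which may be technical.

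Each library held 123693203 to 171130063 calls, or 5.83 to 8.07 calls per autosomal CpG, and covered 95.04% to 96.06% of CpGs. Methylation within 1 kb of marker gene starts was lower in every B cell library than in every T cell library at 7 of 8 B cell markers, with Cr2 overlapping. At T cell markers the reverse held at 6 of 8, with Cd28 and Lat overlapping. Of 5 cytotoxic and natural killer genes, 3 were lower in every T cell library, with levels over the list of 34.0% to 88.5% in T cells and 58.3% to 90.3% in B cells. Lyz2 was the 1 of 4 myeloid genes that was lower in B cells, and neither of 2 erythroid genes separated the cell types. B cell libraries 3, 4, 11 and 12, which span both sexes and both assays, lay below the other 4 B cell libraries in 15.5% of the least methylated bins against 10.2% of all bins tested.

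Most CpGs in mammalian cells carry methylation, which is copied at each division. CpG islands, short stretches rich in CpG at many gene starts, usually escape it, and broad unmethylated valleys are known over developmental regulators kept silent by Polycomb proteins. Enhancers and the bodies of genes that define a lineage can also lose methylation, and 5-hydroxymethylcytosine arises when TET enzymes oxidise 5-methylcytosine.

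The sequences shown here come from bins on which the results turn. All are 200 bases of the plus strand of GRCm38/mm10, outside exons and outside the 2 kb around gene starts, with every CpG in capitals. The first 3 are CpG-rich windows with little methylation in either cell type, from the Hoxc cluster, from the Hoxa cluster and from beside Nr2f2, and were shown because they are among the lowest bins. They lie in intergenic sequence.
Hoxc, chr15:102942924-102943123: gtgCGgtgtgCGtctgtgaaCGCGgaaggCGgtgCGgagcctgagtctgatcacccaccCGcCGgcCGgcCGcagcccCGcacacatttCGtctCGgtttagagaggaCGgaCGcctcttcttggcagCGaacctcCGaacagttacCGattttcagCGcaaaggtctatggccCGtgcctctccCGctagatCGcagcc
Hoxa, chr6:52253472-52253671: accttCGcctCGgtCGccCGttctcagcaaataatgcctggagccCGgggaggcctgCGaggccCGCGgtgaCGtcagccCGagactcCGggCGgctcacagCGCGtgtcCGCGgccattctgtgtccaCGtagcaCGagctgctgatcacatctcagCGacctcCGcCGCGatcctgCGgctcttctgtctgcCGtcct
Nr2f2, chr7:70350989-70351188: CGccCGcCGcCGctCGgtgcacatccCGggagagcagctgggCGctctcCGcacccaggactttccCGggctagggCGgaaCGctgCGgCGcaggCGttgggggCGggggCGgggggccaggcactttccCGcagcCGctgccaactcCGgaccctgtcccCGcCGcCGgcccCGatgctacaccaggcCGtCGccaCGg

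These windows held 22, 24 and 26 CpGs and had pooled levels of 3.79%, 1.99% and 2.87%, respectively. The next 5 windows were shown for their difference between the cell types, a choice made after the values were seen. They hold only 6 CpGs each. The windows of Lef1 and Bcl11b lie in introns of those genes, that of the Satb1 bin in an intron of the non-coding gene AC161258.2, that of the Irf8 bin in an intron of Gm20388, and that of the Pik3ap1 bin in intergenic sequence.
Lef1, chr3:131126025-131126224: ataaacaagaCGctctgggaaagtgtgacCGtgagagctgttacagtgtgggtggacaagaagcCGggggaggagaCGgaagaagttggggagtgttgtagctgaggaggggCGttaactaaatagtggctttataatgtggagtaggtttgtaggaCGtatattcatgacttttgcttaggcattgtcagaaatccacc
Bcl11b, chr12:107926392-107926591: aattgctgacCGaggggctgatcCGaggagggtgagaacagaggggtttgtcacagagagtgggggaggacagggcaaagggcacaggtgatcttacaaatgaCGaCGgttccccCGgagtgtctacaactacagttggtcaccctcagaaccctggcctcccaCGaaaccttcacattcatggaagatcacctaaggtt
Satb1, chr17:51894398-51894597: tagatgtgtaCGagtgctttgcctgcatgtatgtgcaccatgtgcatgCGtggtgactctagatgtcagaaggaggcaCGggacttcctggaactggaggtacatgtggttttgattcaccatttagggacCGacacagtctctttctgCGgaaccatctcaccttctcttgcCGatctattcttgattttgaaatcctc
Irf8, chr8:120757235-120757434: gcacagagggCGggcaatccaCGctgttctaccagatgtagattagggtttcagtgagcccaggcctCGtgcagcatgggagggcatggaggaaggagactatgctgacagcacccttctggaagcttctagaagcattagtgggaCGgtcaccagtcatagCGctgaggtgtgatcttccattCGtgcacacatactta
Pik3ap1, chr19:41391041-41391240: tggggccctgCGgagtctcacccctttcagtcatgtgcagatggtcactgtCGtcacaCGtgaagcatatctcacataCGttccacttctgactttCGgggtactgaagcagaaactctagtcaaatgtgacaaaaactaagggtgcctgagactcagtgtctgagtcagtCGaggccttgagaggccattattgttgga

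In the Lef1 window B cells had a level of 95.4% ± 4.94 (SD, n = 8), and T cells had 0.826% ± 1.27. The Bcl11b window stood at 95.7% ± 2.37 and 3.47% ± 2.51, and the Satb1 window at 95.6% ± 3.73 in B cells with no methylated call in any T cell library. The Irf8 window was the other way round, at 14.5% ± 9.07 in B cells and 94.4% ± 3.20 in T cells, as was the Pik3ap1 window at 1.11% ± 2.16 and 91.9% ± 2.92.

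The label of a large unmethylated domain held for few of the bins. The chosen bins had a median level of 73.9%, against 87.7% in the other 22752 bins, and even the highest stood at 78.5%. Yet the typical CpG inside them was methylated. The median CpG level, taken over all CpGs with any pooled call, was 89.8% in the median chosen bin and 93.6% in the median other bin. It was at least 80% in 1098 of the 1197 bins, under 80% in 99, under 50% in 17 and under 20% in 6. None of the other bins had a median CpG level under 80%.

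**Figure D1:**
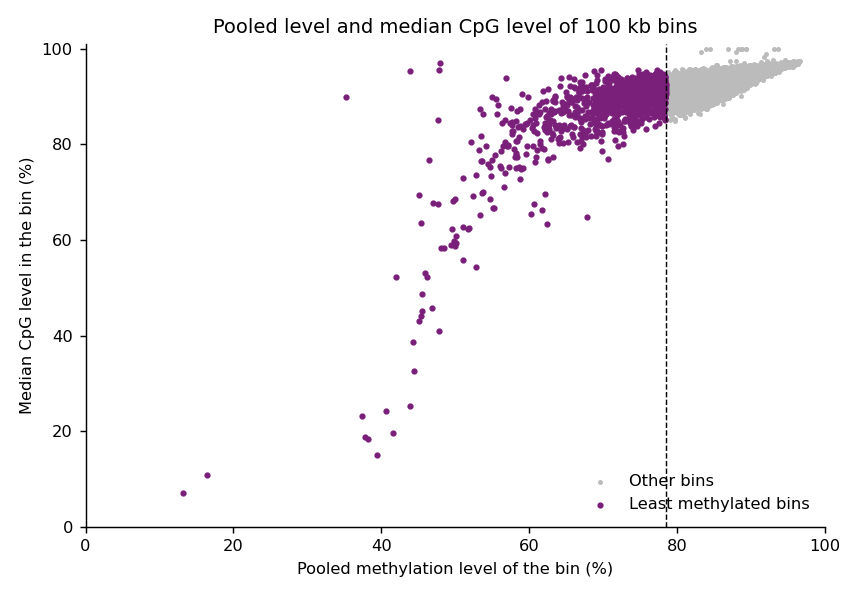
Pooled methylation level of each 100 kb bin (horizontal axis, %) against the median level of its CpGs (vertical axis, %), with the 1197 least methylated bins in purple, the other bins in grey and a dashed line at the highest chosen level, 78.5%. Most purple points lie at a median of 80% or more, and 17 bins lie under 50%.

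The bins nearest the threshold did not stand apart from each other. Just inside lay a bin on chromosome 2 without a protein-coding gene, whose nearest such gene is Tfap2c, a bin within the body of Sgms1, which encodes a sphingomyelin synthase, and a bin with P2ry2 and Fchsd2. Their levels ran from 78.46% to 78.47%. Just outside lay the bins of Ppt1 and Cap1, of Pdgfb, Syngr1 and Rpl3, and of Casz1, all at 78.48%.

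What set the chosen bins apart in their CpGs was the share of CpGs that were nearly unmethylated. CpGs at 20% or below made up a median of 12.3% of the CpGs in a chosen bin and 0.890% in another bin. CpGs between 20% and 80% made up 20.7% and 14.1%, and CpGs at 80% or above made up 65.7% and 84.0%. In other words, the chosen bins were mostly methylated sequence interrupted by unmethylated stretches.

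These stretches were counted directly as runs of at least 5 consecutive CpGs at 20% or below, CpGs near gene starts included. Only CpGs with at least 16 pooled calls were used for this. The chosen bins held 10974 of them, a mean of 9.17 and a median of 8 per bin. The other bins held 31727, a mean of 1.39 per bin, and 50.5% of those bins had none. The median span of a stretch was 428 bp in the chosen bins and 470 bp in the others. For stretches without a CpG within 2 kb of a gene start, the only ones wholly inside the ranking, it was 360 bp against 299 bp. These made up 6166 (56.2%) of the stretches in chosen bins and 41.5% in the other bins. Only CpGs away from gene starts were ranked, so the higher share is in part built into the choice of bins.

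The longest single stretch spanned 9063 bp at Tnrc18. It was followed by 8644 bp at Zfp36l2, which encodes an RNA-binding protein that promotes mRNA decay, and 7646 bp at Lef1. Those at Ikzf1, which encodes the lymphoid transcription factor Ikaros, and at Irf2bp2 spanned 7085 bp and 7026 bp. All 5 reached into the 2 kb around a gene start, so the ranking saw only part of each.

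Base composition differed in the same direction. GC content had a median of 47.2% in the chosen bins and 41.2% in the others, the ratio of observed to expected CpGs was 0.235 against 0.178, and repeat-masked sequence made up 26.5% against 32.0%. A median of 881 CpGs per chosen bin entered the ranking, against 616. CpG-dense sequence, here CpGs with at least 4 others within 100 bp, accounted for 37.0% of these CpGs against 20.5%. With it left out, the median level was 79.7% in the chosen bins and 87.2% in the others, and only 730 of the 1197 bins were chosen again, by a ranking added after the data had been seen.

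Sequencing depth was slightly higher in the chosen bins, at a median of 127 calls per CpG over all libraries against 113. It was over 2 times the median of all bins in 7 chosen bins (0.585%, against 0.0659% of the other bins) and under 0.5 times that median in 19 (1.59%, against 0.699% of the other bins). The part that depth and base composition have in the ranking was not tested. The choice moved most with the exclusion around gene starts. With no CpG left out, 566 of the 1197 bins (47.3%) were chosen again, and with 5 kb left out, 893 were.

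The 10 lowest bins were led by developmental regulators. The lowest, chr15:102900001-103000000, covers Hoxc13, Hoxc12 and Hoxc11 and further Hoxc genes, which pattern the body axis, and stood at 13.1%. Its B cell libraries ran from 11.9% to 14.2% (median 13.05%) and its T cell libraries from 12.3% to 14.5% (median 13.1%), so the cell types overlapped throughout. Here 78.6% of CpGs were at 20% or below, and in 5 kb windows along the bin 18 of 20 windows were under 20% in each cell type and assay. The low level thus ran through nearly the whole bin.

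The Hoxa bin, chr6:52200001-52300000 with Hoxa5, Hoxa6 and Hoxa3, had a level of 37.4%, and the bin of Evx2, Hoxd13 and Hoxd12 on chromosome 2 had 37.9%. Uncx, a homeobox gene of the somites, lay in a bin at 38.2%, and Nr2f2, a nuclear receptor of veins and many organ primordia, in one at 39.4%. Zic4 and Zic1, zinc finger regulators of neural development, shared a bin at 40.7%. The bin of Neurod2, Ppp1r1b and Stard3 stood at 41.5% and that of Prdm13 at 41.9%, Neurod2 and Prdm13 being transcriptional regulators of neurons. In these bins 43.4% to 52.9% of CpGs were at 20% or below, far above the median of the chosen bins, and the rest carried methylation.

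The remaining pair among the 10 held only predicted genes or no protein-coding gene, and its bins differed from each other. The bin of the predicted genes Gm36079 and Gm21188 on chromosome 13 stood at 16.4% with only 69.6 calls per CpG over all libraries. Its median CpG was at 10.8%, and 69.7% of its CpGs were at 20% or below. A bin on chromosome 3 without a protein-coding gene, chr3:5800001-5900000, stood at 35.2% although its median CpG was at 90.0% and only 1.11% of its CpGs were at 20% or below. It had 621 calls per CpG, and 1 CpG alone took 3.93% of its calls. With the 7 bins over 2 times and the 19 under 0.5 times the median depth of all bins left out, 1171 of the 1197 remained. By these limits the bin on chromosome 3 was left out and that of Gm36079 was kept.

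The chosen bins were spread over all 19 autosomes but not evenly. They made up 9.59% of the bins on chromosome 11 (114 of 1189), 7.27% on chromosome 7 and 6.39% on chromosome 4. The lowest shares were 2.87% on chromosome 3 (45 of 1567) and 3.05% on chromosome 16. Most stood alone. They formed 928 runs of adjacent bins, of which 740 were single bins, 129 had 2 bins and only 17 had 4 or more.

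The longest run, of 6 bins at chr4:139700001-140300000, carried Pax7, a regulator of muscle stem cells, with Klhdc7a and Igsf21, at 51.0% to 78.1%. A run of 5 bins at chr8:120700001-121200000 started with Irf8, a transcription factor of B and myeloid cells, and went on to the forkhead genes Foxf1, Foxc2 and Foxl1 and to Mthfsd, at 63.2% to 76.8%. A further run of 5 held Zc3h12a and the glutamate receptor gene Grik3, and another held 12 protein-coding genes, among them Arid1a and Rps6ka1. The run of 4 with the lowest mean level (58.9%), at chr13:23200001-23600000, covered 21 protein-coding genes in part of the large histone cluster.

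Genes were denser in the chosen bins. On average 1.94 protein-coding genes (SD 2.01) started in a chosen bin and 0.808 in another bin, a ratio of 2.40, and 21.9% against 60.01% of bins had no such start. For genes of any kind the means were 3.87 and 2.03. Gene bodies differed much less: they covered a mean of 44.8% of a chosen bin and 41.2% of another. Since CpGs near gene starts were left out of the ranking, the starts themselves did not enter the level, but sequence just beyond 2 kb did. The ratio concerns starts and not the length of genes.

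Altogether 2320 of 20710 protein-coding genes (11.2%) started in a chosen bin, and families were read against that share, without a test. Among the families listed with the tests, Hox genes led with 35 of 39 in 8 bins, followed by histone genes with 49 of 67 in 6 bins. Keratins, the intermediate filaments of epithelia, had 19 of 53, and glutamate receptor subunits had 6 of 18. Of the clustered protocadherins, which give neurons their surface identity, 13 of 57 lay in chosen bins, all of them from the Pcdhb part. The genes of a cluster share bins, so that they are not independent of each other.

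Several other families, broadly used or not, lay near the share of all genes. Ribosomal proteins had 11 of 79, proteasome subunits 5 of 39, solute carriers 34 of 358, potassium channels 10 of 92 and zinc finger genes named Zfp 39 of 378. Chemosensory and antigen receptor families were below it. Olfactory receptors had 24 of 1128 (2.13%), vomeronasal type 1 receptors 6 of 199, immunoglobulin variable segments 5 of 216 and vomeronasal type 2 receptors 1 of 116. None of the 117 T cell receptor variable segments, 64 defensins, 57 keratin-associated proteins, 35 bitter taste receptors or 27 kallikreins started in a chosen bin.

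Further families of developmental regulators were added after the values had been seen. All 4 Zic and all 6 Dlx genes started in chosen bins, as did 8 of 9 Pax, 10 of 14 Nkx, 7 of 12 T-box, 9 of 18 Sox and 17 of 41 forkhead genes. Gata genes, with 1 of 5, were the exception among them. The Wnt ligands, secreted signals rather than transcription factors, had 8 of 19.

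**Figure D2:**
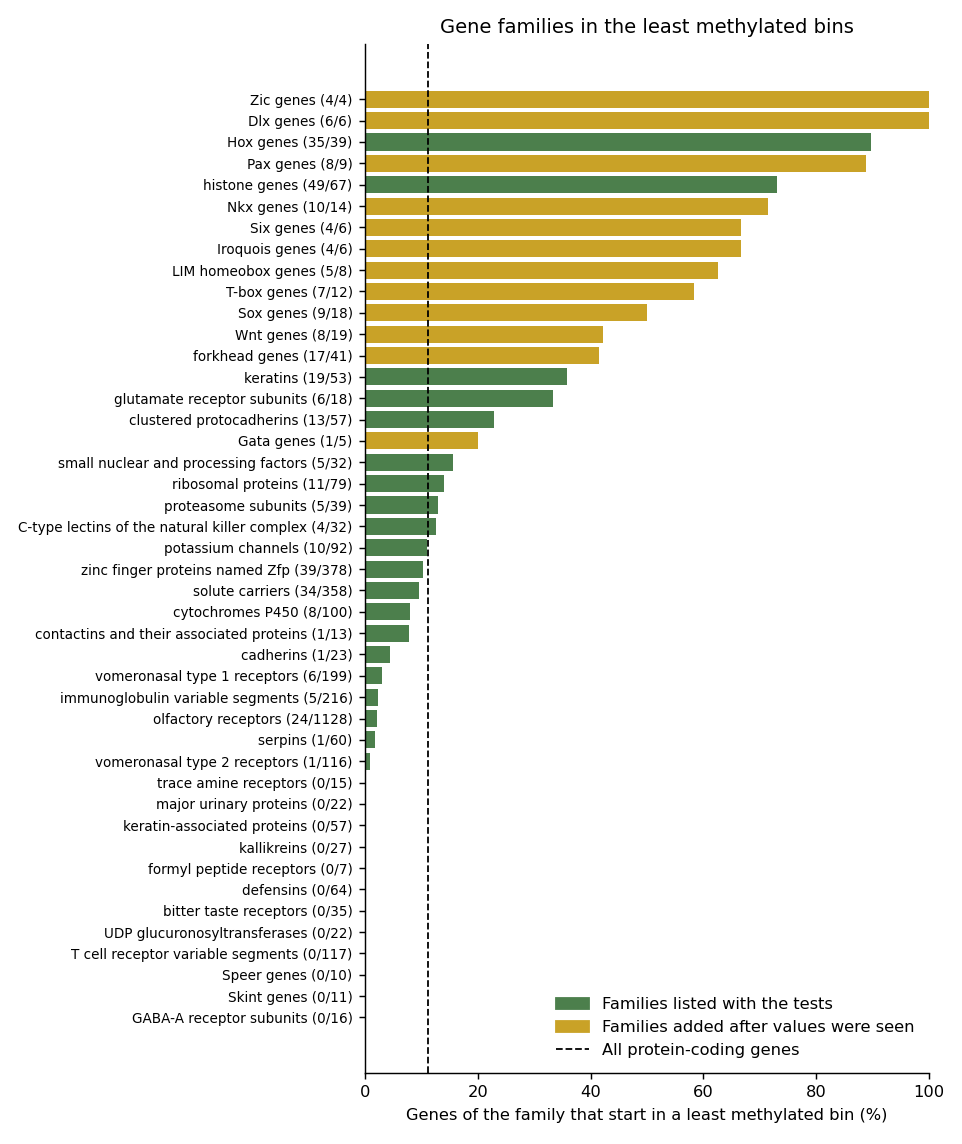
Share of the protein-coding genes of each family that start in a least methylated bin (%), with the number of genes in such bins and in all ranked bins in parentheses, and a dashed line at the share of all protein-coding genes, 11.2%. Green bars are families listed with the tests and yellow bars families added after values were seen; Zic, Dlx, Hox and Pax genes reach the highest shares.

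In each library the calls of all chosen bins were pooled. The level ran from 71.0% to 72.6% (median 72.2%) in B cells. In T cells the BS libraries 5, 7, 13 and 15 stood at 71.3%, 71.2%, 71.1% and 71.2%, and the oxBS libraries 6, 8, 14 and 16 at 69.2%, 69.3%, 69.1% and 69.1%. The oxBS libraries of T cells thus lay below every other library, by more than the spread within any group of 4. In the other bins all 16 libraries lay between 86.6% and 88.1%, again with the oxBS libraries of T cells lowest.

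The gap between other and chosen bins was 15.8 points ± 0.484 in B cells (SD, n = 8). In T cells it was 16.5 points ± 0.126 in BS and 17.6 points ± 0.182 in oxBS libraries (SD, n = 4). The gap was therefore widest in the oxBS libraries of T cells. Within the chosen bins, CpGs inside bodies of protein-coding genes had a level of 72.0% and CpGs outside them 70.4%, against 88.4% and 86.8% in the other bins.

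**Figure D3:**
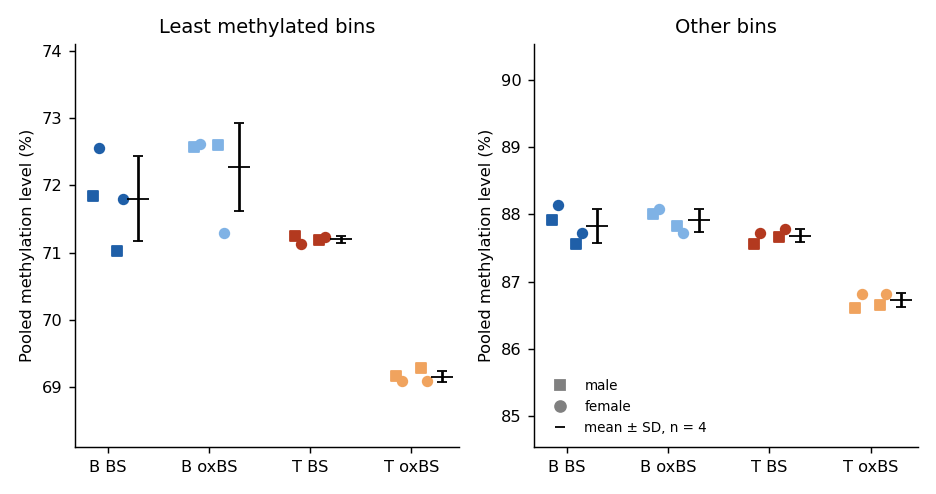
Pooled methylation level (%) of each of the 16 libraries over the least methylated bins (left) and over the other bins (right), by cell type and assay; squares are male and circles female libraries, and bars give the mean ± SD of 4 libraries. Both panels span the same number of points but start at different levels; the 4 oxBS libraries of T cells are lowest in both, at 69.1% to 69.3% on the left.

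B and T cells were compared in a quasi-binomial model of each bin with assay and sex as covariates, with Benjamini-Hochberg adjustment over the 23945 bins with at least 10 calls in every library. Of the chosen bins, 443 (37.0%) passed an adjusted p of 0.05, close to the 34.4% called among all bins. B cells were higher in 360 of them and lower in 83, against 28.3% and 6.08% of all bins. Larger differences in points were more common, but libraries of 1 cell type also varied more in these bins. That spread was taken over BS and oxBS libraries together. It thus includes any difference between the assays, which the model takes as a covariate. The median SD of the 8 B cell libraries was 1.28 points in a chosen bin and 0.608 in another bin. For the 8 T cell libraries it was 1.39 and 0.697 points. A limit in points is therefore not equally strict in both, and the part this has in the counts was not tested. A called difference of at least 5 points was found in 161 of the chosen bins (13.5%) against 2.83% of all bins, with 143 higher and 18 lower in B cells (2.51% and 0.322% of all bins). At 10 points or more there were 67, against 0.56% of all bins, with 65 higher and 2 lower in B cells (0.543% and 0.0167% of all bins). The median difference, B minus T, was 1.04 points in the chosen bins and 0.371 points over all bins.

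The balance of directions among the called bins depended on the scaling. With each library's own genome-wide level as an offset, 447 chosen bins were called, against 36.9% of all bins. Of these 216 were higher and 231 lower in B cells, against 15% and 21.9% of all bins. In BS libraries alone 175 were called (10.7% of all bins), 110 higher and 65 lower in B cells (6.72% and 3.99%). In oxBS libraries alone 397 were called (28.6% of all bins), 365 higher and 32 lower (26.4% and 2.18%), and the count higher in B cells differed most between the assays. Without B cell libraries 3, 4, 11 and 12, 383 were called (27.9% of all bins), 333 higher and 50 lower in B cells (24.3% and 3.63%). With the counts of neighbouring library numbers summed, in case they share DNA, 387 were called (28.8% of all bins), 322 higher and 65 lower (24.2% and 4.6%). Every B cell library lay above every T cell library in 133 chosen bins (11.1%, against 8.31% of all bins) and below in 35 (2.92% against 1.75%).

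Because the level was pooled over both cell types, a bin could be chosen for a low level in one of them alone. A ranking on B cells alone shared 1090 bins with the one used and a ranking on T cells alone 1077. Of the 1197 bins, 107 were not chosen on B cells and 120 not on T cells. The bins of Lef1, Satb1 and Ets1, at over 81% in B cells, were among the former. The ranking could thus admit bins through the difference tested, and the counts were repeated on other choices of bins. Among bins ranked on B cells 389 (32.5%) were called, with 21.8% higher and 10.7% lower in B cells, so that the share called higher lay below that of all bins (28.3%) and the share called lower above it (6.08%). Among bins ranked on T cells 507 (42.4%) were called, 39.1% higher and 3.26% lower.

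The counts of larger differences moved likewise. Of the 973 bins chosen on B and on T cells alike, 293 (30.1%) were called, below the 34.4% of all bins. At 5 points or more 73 (7.503%) were called and at 10 points or more 25 (2.57%), against 2.83% and 0.56% of all bins. Among bins ranked on B cells 102 (8.53%) passed 5 points, and 28 (2.34%) passed 10 points. Of the 102, 67 were higher and 35 lower in B cells, against 2.51% and 0.322% of all bins. Among bins ranked on T cells the numbers were 242 (20.2%), 236 of them higher, and 104 (8.70%). How many more bins were higher in B cells thus depended on which cell type chose them.

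**Figure D4:**
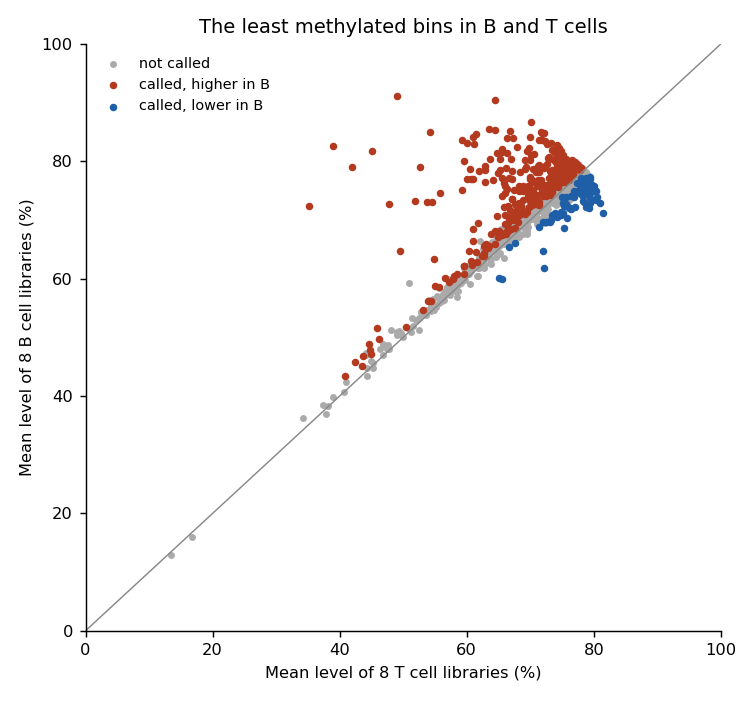
Mean methylation level (%) of each of the 1197 least methylated bins over 8 T cell libraries (horizontal axis) and 8 B cell libraries (vertical axis), with the line of equality; red and blue points are bins called higher (360) and lower (83) in B cells. The farthest points lie above the line, such as the Lef1 bin at 39.0% in T cells and 82.5% in B cells.

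The 5 bins with the largest excess in B cells all belonged to regulators or surface proteins of lymphocytes. Lef1, an HMG-box factor of early T cell development, lay in chr3:131100001-131200000, which its body covers to 89.5%. B cell libraries had 81.4% to 84.0% there (median 82.3%) and T cell libraries 28.6% to 49.6% (median 38.8%). The difference was 43.5 points at an adjusted p of 3.34e-07, and the groups did not come near each other.

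Satb1, a chromatin organiser needed in thymocytes, lay in a bin on chromosome 17 that read 89.9% to 92.9% in B cells (median 90.9%) and 42.2% to 56.2% in T cells (median 49.3%). It differed by 42.1 points (adjusted p = 3.98e-09). In T cells the low level was concentrated in one part of the bin, where 7 of 20 windows of 5 kb were at most 20% in BS libraries against 2 windows in B cells.

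Ptprc encodes CD45, a phosphatase on the surface of B and T cells alike. Its bin had 66.8% to 78.4% in B cells (median 72.4%) and 29.1% to 41.5% in T cells (median 36.0%), a difference of 37.2 points (adjusted p = 7.50e-07). B cell libraries 3, 4, 11 and 12 were the 4 lowest B cell libraries, at 66.8% to 69.2%, and still stood above every T cell library.

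Bcl11b, a zinc finger factor that fixes the T cell fate, covers 89.6% of its bin, chr12:107900001-108000000. B cell libraries were tightly grouped there, at 78.5% to 79.7%, and T cell libraries ran from 31.1% to 51.5%, which gave 37.1 points (adjusted p = 4.97e-07). Ets1, an ETS-family factor of lymphocytes, had 78.6% to 85.7% in B cells and 39.5% to 50.8% in T cells, a difference of 36.6 points (adjusted p = 2.16e-07). The exact permutation test of 8 against 8 libraries gave 0.000155 at each of these 5 bins, the smallest p it can give.

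In these bins single CpGs switched as well. Of the CpGs with at least 16 calls in both cell types, 355 in the Bcl11b bin were at most 20% in T cells and at least 80% in B cells, as were 291 in the Lef1, 193 in the Ets1, 118 in the Satb1 and 77 in the Ptprc bin. At most 3 CpGs in any of them did the opposite. Over all chosen bins 7071 of 1032338 CpGs (0.685%) were low in T and high in B cells, in 548 bins, and 3011 (0.292%) were low in B and high in T cells, in 505 bins. In the other bins the shares were 0.207% and 0.126%. By far most low CpGs of the chosen bins were low in both cell types, 13.9% of all CpGs against 1.55% elsewhere.

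The 5 called bins that were lowest in B cells relative to T cells differed by less. The bin of Aars2, Tcte1 and Tmem151b on chromosome 17 had 59.1% to 66.3% in B cells and 71.0% to 74.2% in T cells, a difference of -10.3 points (adjusted p = 3.96e-06). In the Irf8 bin, chr8:120700001-120800000, the levels were 68.8% to 73.3% and 80.5% to 83.1%, a difference of -10.2 points (adjusted p = 1.30e-06). Pik3ap1, an adaptor of B cell receptor signalling, covers 85.1% of a bin with -8.13 points (adjusted p = 0.000129).

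Zfp608 and the pair Snn and Litaf completed the group, at -7.31 points (adjusted p = 6.77e-05) and -7.23 points (adjusted p = 0.00109). The groups of libraries did not overlap in the first 4 of these 5 bins. In the Snn and Litaf bin the highest B cell library, at 76.3%, passed the lowest T cell library, at 76.2%. Few CpGs in these bins switched, 34 in the Irf8 bin, 25 in the Pik3ap1 bin and at most 14 in the others.

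**Figure D5:**
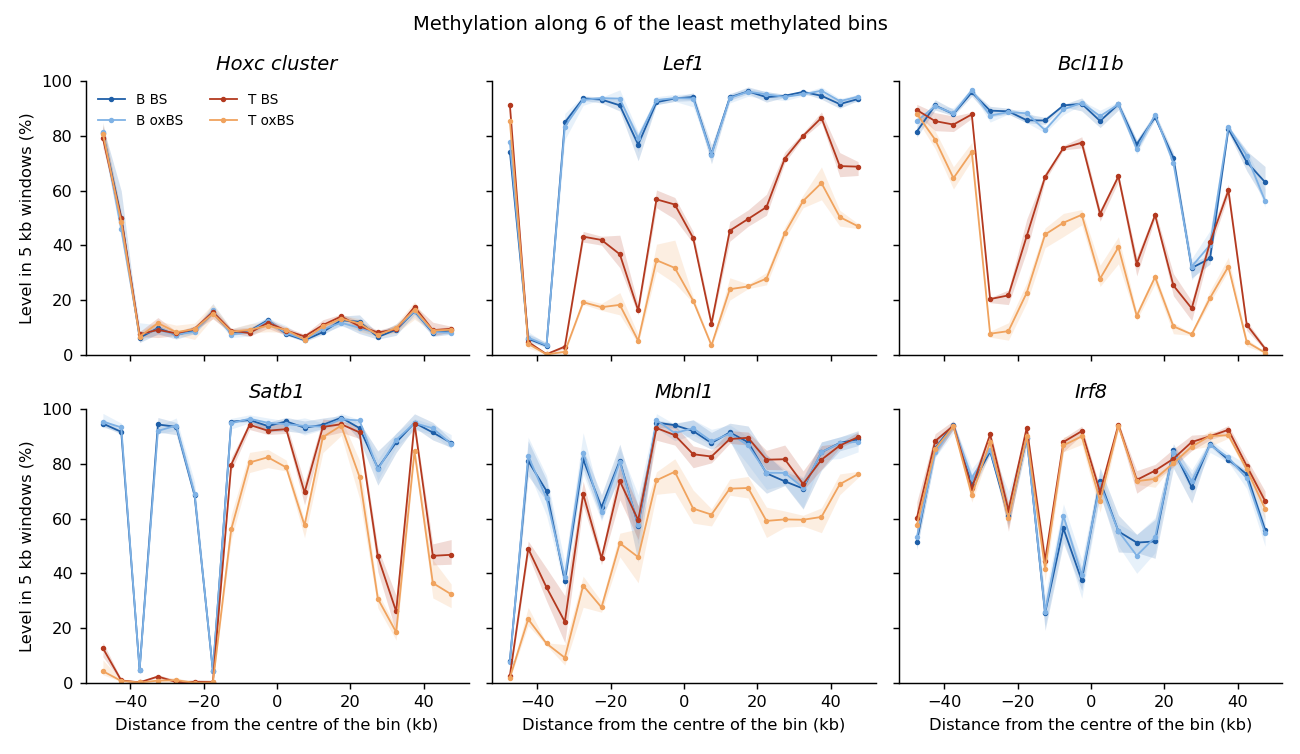
Methylation level (%) in 5 kb windows along 6 of the least methylated bins, against the distance from the centre of the bin (kb), with CpGs near gene starts included; lines are B BS, B oxBS, T BS and T oxBS and shading runs from the lowest to the highest of 4 libraries. The Hoxc bin is low in all lines, the Lef1, Bcl11b and Satb1 bins are low over long parts in T cells and high in B cells, the Mbnl1 bin separates the T cell assays, and the Irf8 bin is lower in B cells over its middle.

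By contrast, the 10 lowest bins differed little between the cell types. Their B minus T differences ran from -0.823 to 2.63 points, and only the Prdm13 bin was called, at 2.63 points (adjusted p = 0.0101). Its libraries overlapped, with 41.3% to 45.5% in B cells and 37.7% to 42.4% in T cells. In BS and oxBS libraries alone the difference was of the same size, 2.54 and 2.73 points, and was not called with these fewer libraries.

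Of 24 genes of T cell identity 9 started in chosen bins (37.5%), as did 6 of 21 genes of B cell identity, 5 of 23 genes used in every cell, 2 of 35 genes of neuronal adhesion and synapse, and none of 11 genes of the DNA methylation machinery. The bins of all 9 T cell genes were called higher in B cells. Such a bin could be chosen for a low level in T cells alone, as the Lef1 bin was. The direction is therefore in part built into the choice of bins. Besides Lef1 the 9 genes included Tcf7, its partner factor, at 26.5 points, the surface receptors Cd5 at 21.9 and Ccr7 at 19.3, the receptor chain Cd247 at 12.7, the kinase Lck at 11.2, the adaptor Lat at 11.2 and Cd4 at 7.90. Cd4 had the largest adjusted p of the 9, 0.000405.

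The bins of B cell genes did not mirror this. Cd72, a receptor that restrains B cells, was called lower in B cells at -2.996 points (adjusted p = 0.00744), and Ebf1, a factor that specifies the lineage, was called higher at 2.80 points (adjusted p = 0.0108). Fcrla, Spib and Cxcr5 had -1.99, -0.866 and -2.69 points and Pax5 had 1.69, none of them called. The Pax5 bin was low in both cell types, with a pooled level of 57.6%. Genes used in every cell included Actb, called higher in B cells at 3.81 points, and Hsp90ab1, which shares the bin of Aars2.

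BS and oxBS libraries were compared within each cell type with sex as a covariate. Where oxidation removes signal, BS minus oxBS is positive, but other differences in handling between the assays cannot be told apart from it. The paper did not separate the assays and describes hydroxymethylation here as very low. The cause of the differences below was not tested. In B cells no bin of any kind was called (0%) by the quasi-binomial model or by limma. Differences could be missed with 4 against 4 libraries. In data simulated for the T cell comparison, 12% of bins with a difference of 0.2 on the logit scale were called, and 48% at 0.5. The spread in that simulation came from the model of all 16 libraries, not from the T cells alone. That model has a single assay difference for both cell types, so its spread can exceed that within T cells. The shares are therefore no measure of the power in these data. No simulation was made for B cells. At an unadjusted p under 0.05 there were 41 chosen bins and 944 bins in all (3.43% and 3.94%) in the quasi-binomial model, and 58 and 725 (4.85% and 3.03%) in limma. The median difference was -0.359 points in the chosen bins and -0.0555 points over all bins.

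In T cells 368 of the chosen bins (30.7%) were called, against 23.7% of all bins. BS was above oxBS in 366 of them and below in 2, against 23.4% and 0.271% of all bins. The median difference was 1.20 points in the chosen bins and 0.435 points over all bins. A called difference of at least 5 points was found in 177 chosen bins (14.8%), each with BS above oxBS, against 2.68% of all bins. With the library level as an offset, 323 were called, against 20.9% of all bins, 239 above and 84 below (12.3% and 8.59% of all bins). Every BS library lay above every oxBS library in 431 chosen bins (36.0%, against 27.9% of all bins). The exact test of 4 against 4 libraries cannot go below 0.0286 and called none after adjustment. The caution on a limit in points, given for B against T cells, holds here too, although the T cell SDs given there include the assay difference itself. As the T cell oxBS libraries were part of the level, bins could also be chosen for a low level in them. A ranking on the 8 BS libraries alone shared 1153 of the 1197 bins. The counts here and those of the interaction below were not repeated on bins ranked on B cells.

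The 3 largest differences were at Mbnl1, Lef1 and Bcl11b. The bin chr3:60500001-60600000 lies wholly within Mbnl1, which encodes a splicing regulator. There the T cell BS libraries 5, 7, 13 and 15 had 73.2%, 74.5%, 73.4% and 74.8%, and the oxBS libraries 6, 8, 14 and 16 had 54.0%, 54.1%, 53.2% and 52.1%. The difference was 20.6 points (adjusted p = 0.000530), many times the spread within either assay. In B cells the corresponding difference was 0.0404 points, with all 8 libraries at 77.8% to 83.7%. Their mean of 80.5% lay above 79.1%, the highest level of a bin chosen on B cells alone, so low levels in T cells helped to admit this bin.

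In the Lef1 bin the BS libraries, in the same order, had 49.2%, 46.9%, 48.7% and 49.6% and the oxBS libraries 28.9%, 28.6%, 30.8% and 29.5%, a difference of 19.1 points (adjusted p = 0.000609). In the Bcl11b bin they had 50.2%, 49.8%, 51.5% and 51.3% against 34.0%, 31.1%, 33.0% and 34.9%, a difference of 17.5 points (adjusted p = 0.000643). In both bins every BS library stood clear of every oxBS library, and both assays stood clear of the B cells. In BS libraries alone the Lef1 bin still differed by 33.7 points between B and T cells, and in oxBS libraries by 53.3. In the Mbnl1 bin the same differences were 6.53 and 27.1 points.

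Along the Lef1 bin, 5 of 20 windows of 5 kb were at most 20% in BS and 9 in oxBS libraries of T cells, against 2 windows in either assay of B cells. Along the Bcl11b bin there were 3 and 7 such windows in T cells and none in B cells. The Mbnl1 bin had 1 such window in BS and 3 in oxBS libraries of T cells, but no window of its oxBS libraries exceeded 77.1%, while its BS libraries reached 93.1%.

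The B against T and the BS against oxBS comparisons share their T cell libraries, so their values are given side by side only. A low level in the T cell oxBS libraries raises both differences. Of all bins, 23.7% were called between BS and oxBS in T cells, with a median difference of 0.435 points. In the 143 bins higher in B cells by 5 points or more, BS exceeded oxBS in T cells by a median of 7.89 points and 135 were called. In the 18 bins lower in B cells by as much, the median was 2.16 points and 9 were called. In the 754 bins not called between cell types it was 0.719 points with 121 called, and in the 10 lowest bins 0.438 points with none called. In B cells the medians of the same 4 sets lay between -0.486 and -0.192 points. All 9 bins of T cell genes were called in T cells, from 5.29 points for Lat to 19.1 for Lef1, and of the 6 bins of B cell genes only that of Cxcr5 was, at 5.41 points (adjusted p = 0.00930). Bins of T cell genes could be chosen for a low level in T cells, oxBS libraries included. The contrast between the 2 gene lists is therefore in part built into the choice of bins.

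The difference between the cell types in BS minus oxBS was tested as an interaction of cell type and assay. It was called in 285 chosen bins (23.8%), against 16.3% of all bins. The difference was smaller in B cells in 284 of them and larger in 1 (16.1% and 0.18% of all bins). With the library level as an offset 166 were called, against 9.4% of all bins, 141 smaller and 25 larger in B cells (6.21% and 3.19%). Without B cell libraries 3, 4, 11 and 12, 238 were called (19.9%, against 10.7% of all bins). Male and female libraries gave no called bin in the quasi-binomial model (0%) or in limma. At an unadjusted p under 0.05 there were 49 chosen bins and 1787 bins in all in the first (4.09% and 7.46%). In the second there were 41 and 1483 (3.43% and 6.19%). The median difference, male minus female, was -0.0277 points in the chosen bins and -0.147 points over all bins.

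Late-replicating partially methylated domains, a known kind of broad low methylation in other cells, lose methylation first at solitary CpGs flanked by A or T. The same comparison was made here on CpGs more than 35 bp from the next one. In the chosen bins the level of CpGs flanked by A or T minus that of CpGs flanked by C or G was -6.74 points ± 0.418 (SD, n = 16 libraries, with single libraries from -7.40 to -6.23), and in the other bins the difference was -8.67 points ± 0.122. The chosen bins thus had the smaller contrast in these libraries. With no limit on the distance the sign turned in the chosen bins, to 3.95 points, and stayed negative in the others, at -6.43 points, and the cause was not tested.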

How the data were processed

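The deposited files hold, per library and CpG, counts of unmethylated and methylated reads with both strands combined. Per the labels and the study's methods, the authors trimmed reads with Trim Galore 0.6.0, mapped them to mm10 with Bismark 0.20.0 and kept alignments of MAPQ at least 10 with SAMtools 1.3.1. Counts were summed here per library and 100 kb bin with Python 3.11.15, NumPy 2.4.6 and pandas 2.3.3. Positions that were not CpGs in the reference (43070 to 59226 per library) were left out, as were CpGs within 2 kb of GENCODE vM21 starts. In a single library, up to 39614 calls of 1 kind, methylated or unmethylated, fell on 1 CpG.

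Each bin was fitted with a quasi-binomial logistic model (F test, Benjamini-Hochberg over all bins tested), with cell type, assay and sex as terms as stated, and tested on simulated data. Alternatives were limma 3.58.1 on logit levels (prior count 0.5), exact 2-sided permutation tests, offsets, subsets of libraries and other bins. Differences are in percentage points.

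The bins named were the 10 lowest, the 5 longest runs, the 5 called bins with the largest B minus T difference in each direction, the 3 with the largest BS minus oxBS difference, and 3 on each side of the threshold, with up to 3 genes per bin. Members and lists were chosen with earlier results of these data known. Sequences are from GRCm38. Some items of the lists are not reported here.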

Additional observations from a re-analysis of the deposited data

Results flagged for a closer look

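Among 100 groups of 4 libraries, 4 held a library far from the other 3, where chance gives about 5. Over all chosen bins pooled, female B cell oxBS library 11 was lowest at 71.3%, the other 3 standing at 72.6%. In the Satb1 bin, female T cell BS library 15 was highest at 56.2%, against 53.9% to 54.1%. In the bin on chromosome 3 without a protein-coding gene, male T cell oxBS library 8 was lowest at 29.4%, against 34.9% to 36.0%. In the Zic4 and Zic1 bin, female T cell oxBS library 16 was highest at 41.7%, against 39.0% to 39.2%.

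The difference BS minus oxBS differed between B and T cells, by the interaction test, in 285 chosen bins, and in 7 of the named chosen ones. B minus T, it was -20.6 points in the Mbnl1 bin (adjusted p = 0.00133), -19.6 points in the Lef1 bin (5.65e-05), -17.5 points in the Bcl11b bin (3.43e-05) and -11.0 points in the Satb1 bin (0.00925). In each of these the B cell difference was between -0.499 and 0.108 points. In the 3 bins just inside the threshold it was -6.88 points at Sgms1 (0.0353), -4.44 points at P2ry2 (0.00970) and -1.96 points in the bin near Tfap2c (0.0455). Just outside the threshold, the bin of Pdgfb, Syngr1 and Rpl3 had -4.52 points (0.00280).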

How the results depend on the processing

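Groups share no library number. Neighbouring numbers were tried as a replicate block after the data were seen: of 8 BS libraries, 3 correlated best with their neighbour among the oxBS libraries of that cell type over the chosen bins and 6 over all bins. With this block, BS against oxBS was called in 269 chosen bins in T cells (14.6% of all bins) and in 0 in B cells (0%), and the interaction in 279 (16.2%). Of the 1197 chosen bins, 566 were chosen again with no CpG left out, 730 with CpG-dense segments left out (added after the data were seen), 596 from 50 kb bins and 721 from 200 kb bins. Calls between B and T cells numbered 443, but 175 in BS libraries alone, 109 in male (7.63% of all bins) and 159 in female libraries (9.12%). At 5 and 10 points or more they numbered 161 and 67. With neighbouring numbers summed these were 153 and 67, against 2.74% and 0.53% of all bins. With 1 library left out, calls without a limit numbered 388 to 470, against 31.0% to 34.7% of all bins. They were 293, 73 and 25 without a limit and at 5 and 10 points among bins chosen on both cell types, 102 and 28 at 5 and 10 points on B cells alone and 242 and 104 on T cells alone. Calls between BS and oxBS in T cells numbered 368, but 177 at 5 points or more. With 1 library left out, calls without a limit numbered 306 to 321, against 17.8% to 18.3% of all bins. By the exact test they were 0. Too few bins (28.4%) reached its smallest p, 0.0286, for that p to pass the adjustment. In B cells and between the sexes, calls were 0 throughout with 1 library left out. The interaction was called in 285 bins, in 166 with an offset, and in 208 to 335 with 1 library left out (11.9% to 17.8% of all bins). The gene density ratio of 2.40 was 1.09 for the mean of gene body bases. The contrast of -6.74 points by flanking bases was -5.24 points beyond 20 bp, -7.38 points beyond 50 bp and 3.95 points without a limit. No called difference of a named chosen bin changed sign under the alternatives run; among those not called, some, such as B minus T at Sgms1, P2ry2, Zic4 and Gm36079, changed sign between BS and oxBS libraries alone. Depth of 5.83 to 8.07 calls per CpG limits statements on single CpGs, and counting error alone is covered there.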

Other observations

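B cell libraries 3, 4, 11 and 12 lay together below libraries 1, 2, 9 and 10 in 186 chosen bins (15.5%) and together above them in 5 (0.418%). Over all bins tested the counts were 2449 (10.2%) and 208 (0.869%). The split was seen in the data, has no test. Each set is made of whole neighbouring number pairs, 3 with 4 and 11 with 12 against 1 with 2 and 9 with 10, and no label says what the numbers mark. At Ptprc the 4 libraries had 66.8% to 69.2% and the other 4 had 75.6% to 78.4%. At Ets1 they had 78.6% to 78.9% against 83.0% to 85.7%, and at Mbnl1 77.8% to 78.4% against 82.3% to 83.7%. At Pik3ap1, which was lower in B than in T cells, they had 68.6% to 71.3% against 73.6% to 76.8%. The 2 sets overlapped in the Bcl11b bin, at 78.9% to 79.7% and 78.5% to 79.1%.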
